A study of Mus musculus with 8 samples.

Results

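The SoxF and ETS transcription factors of endothelium were followed in mouse haemogenic endothelium, an endothelium of the embryo from which blood cells bud off. The set held 10 genes, matched by gene name in the deposited table of read counts: the 3 SoxF genes Sox7, Sox17 and Sox18, and the 7 ETS genes Erg, Fli1, Ets1, Ets2, Etv2, Elk3 and Etv6. These were 10 of 41128 genes in the table, and all 10 were among the 14179 genes that passed the filter on low counts. The cells were differentiated in culture from C57BL/6 embryonic stem cells, and RNA was read from 8 libraries, 2 in each of 4 groups. The groups were the Hdac2 lox/lox line treated with 4-hydroxytamoxifen (4OHT), the same line treated with ethanol (EtOH, the usual solvent of 4OHT), the Hdac1 lox/lox line treated with 4OHT, and the Hdac1 lox/lox line treated with EtOH. Hdac1 and Hdac2 encode related histone deacetylases, and 4OHT is widely used to switch on a tamoxifen-dependent Cre recombinase that cuts out DNA between lox sites. The sources used here do not give the Cre driver or the stretch between the lox sites, and 4OHT-treated cells that lack lox sites were not analysed here. Each genotype is 1 labelled line, so the deleted gene and the line cannot be told apart. No label says that replicates were separate cultures, so the p-values measure only the spread between these libraries, which may be technical.

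SoxF proteins bind DNA through an HMG box and ETS proteins through the winged helix-turn-helix ETS domain, and many endothelial enhancers carry sites for both. Sox17 marks arterial and haemogenic endothelium and in mouse holds cells in an endothelial state, where Runx1 favours the change to blood. Etv2 is a short-lived ETS factor that starts the endothelial and blood programmes in mesoderm and is then switched off, while Erg and Fli1 maintain both endothelium and blood stem cells.

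The ETS members resemble each other most in their DNA-binding domain, which bears on how reads are assigned between them. The following 90-base coding stretches, from GENCODE M21 transcripts, are those where the genes of a pair match best, and capitals mark the positions that differ within the pair. Those of Erg and Fli1 lie in the ETS domain.
Erg: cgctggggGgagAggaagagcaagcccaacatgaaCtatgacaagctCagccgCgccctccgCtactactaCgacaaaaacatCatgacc
Fli1: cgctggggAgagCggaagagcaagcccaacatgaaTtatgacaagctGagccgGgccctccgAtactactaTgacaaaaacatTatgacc
Erg and Fli1 matched at 82 of 90 positions (91.1%), with no identical run longer than 22 bases. The stretches of Ets1 and Ets2 also came from the ETS domain.
Ets1: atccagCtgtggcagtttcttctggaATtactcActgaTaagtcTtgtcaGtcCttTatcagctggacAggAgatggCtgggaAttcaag
Ets2: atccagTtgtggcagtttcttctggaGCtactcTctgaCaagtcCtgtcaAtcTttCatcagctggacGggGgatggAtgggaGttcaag
Ets1 and Ets2 matched at 77 of 90 positions (85.6%), with runs of at most 19 identical bases. No pair of members shared an aligned stretch of at least 75 bases at 95% identity or more. Such a stretch did join Elk3 to Cdk17 (320 bases, 100% identical), Etv6 to Gm17089 (145 bases, 98.6% identical) and Sox17 to Gm37587 (804 bases, 100% identical), so the split of reads there is uncertain. Gm37587 was not a gene of the count table, and Gm17089 held 1 read over all 8 libraries.

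The ETS genes lie partly in pairs on the genome (mm10). Fli1 (chromosome 9, 32422204 to 32542861, minus strand) and Ets1 (chromosome 9, 32636221 to 32757820, plus strand) are 93.4 kb apart. Erg (chromosome 16, 95359169 to 95586593, minus strand) and Ets2 (chromosome 16, 95702075 to 95721051, plus strand) are 115 kb apart with no gene of the table between them. In the Hdac2 line the log2 fold changes described below were 0.43 for Fli1 and 0.50 for Ets1, and 0.68 for Erg and -0.09 for Ets2. Genes that overlap Fli1, Ets1 or Etv6 held at most 0.0043% of the member's own counts.

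Upstream sequence was available from RefSeq (GRCm38.p6) for Erg, Ets2, Etv2, Elk3 and Etv6, and not for Sox7, Sox17, Sox18, Fli1 and Ets1. The 250 bases before the start site were searched on both strands for the ETS motifs CCGGAAG and CAGGAAG, the SOX motifs AACAAT and ACAAAG, the FOX and ETS motif AACAGGAA and the GATA motif AGATAA. The FOX and ETS motif overlaps the second ETS motif in its last letters. The 3 members with an entry whose counts passed the test described below are printed, with motif matches in capitals. The Erg stretch belongs to the start site that lies farthest into the gene of its 3 RefSeq starts (chromosome 16, 95459349 to 95459598, minus strand), the Elk3 stretch is chromosome 10, 93311160 to 93311409, minus strand, and the Etv2 stretch is chromosome 7, 30635853 to 30636102, minus strand.
Erg: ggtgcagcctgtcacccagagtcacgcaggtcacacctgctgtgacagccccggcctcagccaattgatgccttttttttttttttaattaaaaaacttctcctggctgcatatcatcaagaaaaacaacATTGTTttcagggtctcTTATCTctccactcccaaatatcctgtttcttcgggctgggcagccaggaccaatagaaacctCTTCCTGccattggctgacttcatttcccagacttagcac
Elk3: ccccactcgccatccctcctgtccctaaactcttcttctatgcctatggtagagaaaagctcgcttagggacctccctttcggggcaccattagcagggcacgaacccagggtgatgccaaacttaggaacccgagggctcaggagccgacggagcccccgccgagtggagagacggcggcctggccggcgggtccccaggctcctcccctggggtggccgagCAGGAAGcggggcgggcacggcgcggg
Etv2: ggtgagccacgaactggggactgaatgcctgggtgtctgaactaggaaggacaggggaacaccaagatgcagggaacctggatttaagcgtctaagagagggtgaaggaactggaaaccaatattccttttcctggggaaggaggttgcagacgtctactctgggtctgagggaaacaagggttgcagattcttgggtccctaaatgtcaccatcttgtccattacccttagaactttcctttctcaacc
The Erg stretch held the ETS motif CAGGAAG, the SOX motif AACAAT and the GATA motif AGATAA, all on the reverse strand. The Elk3 stretch held the ETS motif CAGGAAG on its own strand. Of 32851 promoter stretches of this length, 10.8% held CAGGAAG, 9.42% held AACAAT and 9.99% held AGATAA, so each match is common. The shares for the motifs found in neither stretch were 6.91% for CCGGAAG, 16.5% for ACAAAG and 2.25% for AACAGGAA. The Etv2 stretch, those of Ets2 and Etv6 and those of the other Erg starts held none of these letters.

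Facts of the whole series touch these genes in several places. Total counts ran from 10215792 to 19552380 per library. Hdac1 stood at 6.99 and 7.12 CPM in the 4OHT libraries of the Hdac1 line, above the 5.78 and 5.6 CPM of its EtOH libraries. Hdac2 stood at 149 and 149 CPM in the 4OHT libraries of the Hdac2 line and 165 and 151 CPM in its EtOH libraries, so neither targeted gene was clearly lower with 4OHT. Gene counts also include exons that may lie outside the lox sites, so these counts do not check the labels, and 4OHT and EtOH stand for what libraries were labelled as. EtOH replicate 2 of the Hdac2 line held 4.58 CPM of the Y-linked gene Ddx3y, against at most 0.889 CPM in the other 3 libraries of that line and 25.8 to 45.7 CPM in the Hdac1 line. Log2 fold changes of the members without that library follow the first comparison, and shares and marker sums are given for each library. In the Hdac1 line, libraries resembled each other across the agents: over all tested genes the correlation of log2 CPM was 0.991 between 4OHT replicate 1 and EtOH replicate 2, and 0.981 between the 4OHT replicates. The correlation of 4OHT replicate 2 with EtOH replicate 1 was 0.983, and that of the EtOH replicates with each other was 0.971. Whether labels were exchanged in this line was not tested, and these counts alone cannot tell it. An exchange would change the Hdac1-line comparison, the difference between the lines and the comparisons of the lines under the same agent. All of these follow the labels as given. The p-values of the Hdac2-line comparison could change too, because the estimate of the spread is drawn from all 8 libraries together. With only the Hdac2-line groups in the fit, 7 members passed the test described below, against 5 in the main fit. All libraries held the endothelial markers used to check the cell type, with 2635 to 7556 CPM summed over 8 markers, and the haemogenic markers with 368 to 969 CPM summed over 6.

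Levels below are CPM, counts scaled to library size and by TMM, and fold changes are 4OHT over EtOH unless stated. A gene is said to have risen or fallen where the quasi-likelihood test of edgeR gave a p under 0.05 after Benjamini-Hochberg adjustment (all 14179 tested genes). The ± values are the SD of 2 libraries for levels and the SE for log2 fold changes. In these bulk libraries, fewer cells of a type and less RNA per cell cannot be told apart.

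In the Hdac2 line, Sox17, Sox7, Erg and Elk3 rose in the libraries labelled 4OHT and Etv2 fell. Among all genes, 36.1% were called in this comparison, 18.9% higher and 17.2% lower, so 5 of 10 members is a share not far from that of all genes. The 4OHT libraries lay wholly above the EtOH libraries for 7 members and wholly below for 1, where such separation held for 78.3% of all genes, 38.6% above and 39.7% below. The members' median log2 fold change was 0.52, against -0.02 over all genes. Leaving out any 1 of the 4 Hdac2-line libraries ended all 5 calls, although all 5 kept their direction each time. Over all genes, 826 calls were left when 4OHT replicate 1 was dropped and 91 when 4OHT replicate 2 was. Dropping EtOH replicate 1 left 116 calls, and dropping EtOH replicate 2, the library with Y-linked reads, left 0. A library left alone in its group takes its spread from the groups that keep a pair, which include both Hdac1 groups. Replicates there correlated at 0.981 and 0.971, against 0.991 and 0.989 in the Hdac2 groups. These fits therefore cannot tell how much of the loss of calls comes from the library left out. In the fit of all 8 libraries 6 of the 10 members had an unadjusted p under 0.05, as did 49.6% of all genes. Without the EtOH library with Y-linked reads it was 3 members and 5112 genes.

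Without that EtOH library the log2 fold changes in the Hdac2 line were 2.2 for Sox17, 0.68 for Sox7 and -0.30 for Sox18. Those of the ETS genes were -2.59 for Etv2, 0.76 for Erg, 0.39 for Fli1, 0.59 for Ets1, 0.01 for Ets2, 0.55 for Elk3 and 0.68 for Etv6. The lowest adjusted p of edgeR's quasi-likelihood test was then 0.0794, for Etv2. Ets2 was the 1 member whose direction turned.

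**Figure D1:**
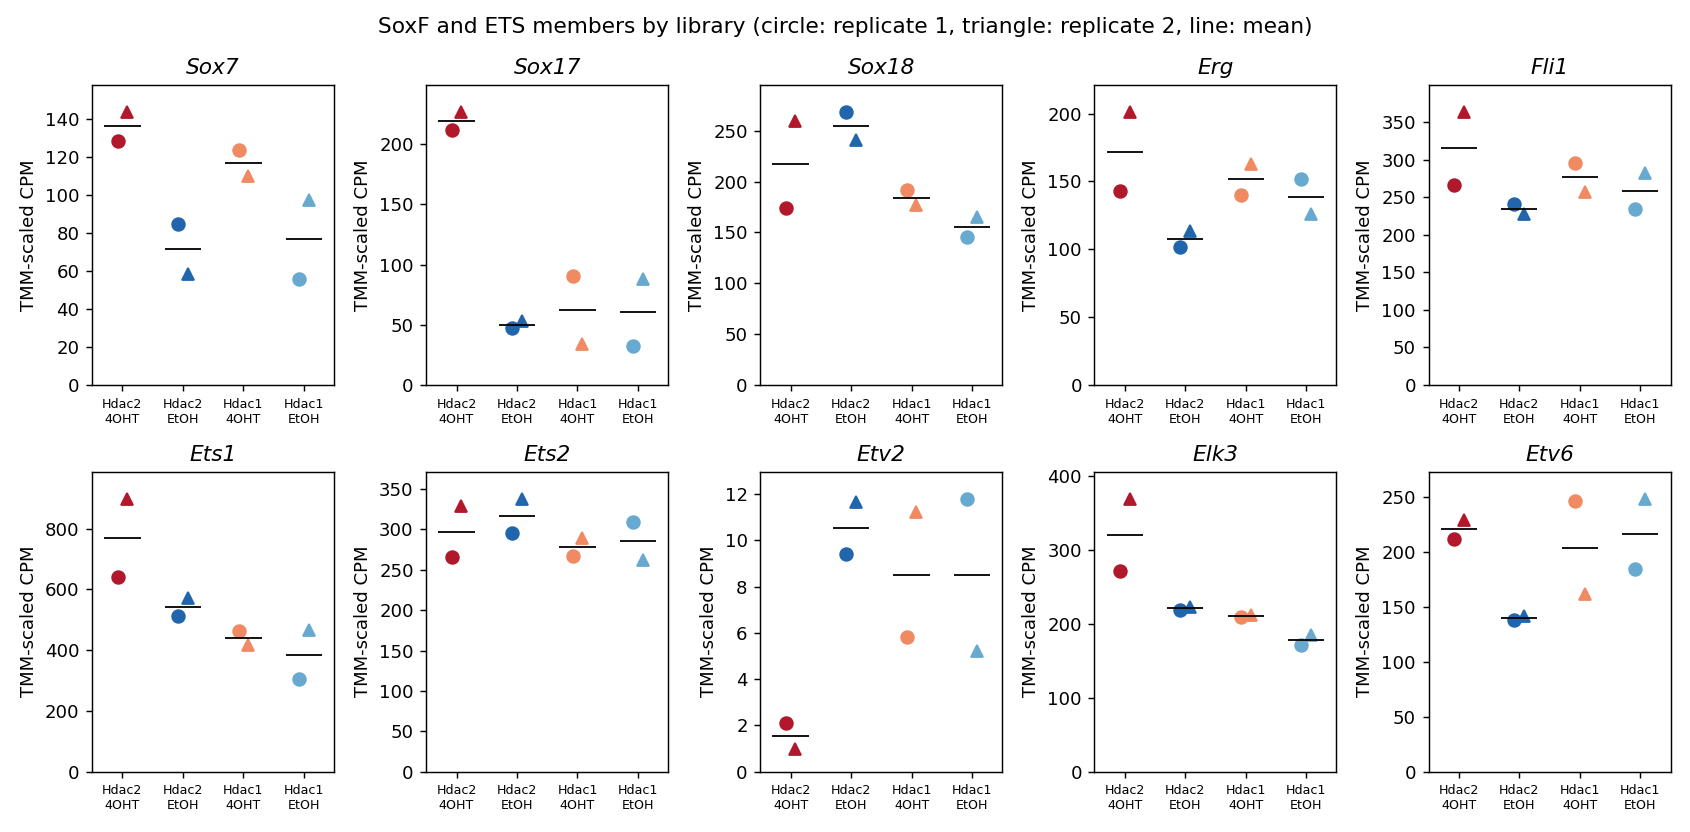
CPM of the 10 members (vertical axis, linear, from 0) in each group, with circles for replicate 1, triangles for replicate 2 and a line at the mean of 2 libraries. Sox17 stands at 211 and 226 CPM in the Hdac2 4OHT libraries, above the 6 other libraries, and Etv2 is lowest in those 2 libraries.

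Of the SoxF genes, Sox17 had the highest log2 fold change of the set. Sox17 (chromosome 1, 4490928 to 4496413, minus strand) stood at 211 and 226 CPM in the 4OHT libraries of the Hdac2 line, against 47.6 and 52.8 CPM in its EtOH libraries. The groups lay far apart next to the gap between replicates, and the log2 fold change was 2.13 ± 0.54 (4.36-fold, 95% interval of the log2 value 0.87 to 3.38, adjusted p = 0.0231). Its log2 fold change ran from 2.05 to 2.2 over the fits that each left out 1 library, so the size held where the call was lost. With no filter on low counts its adjusted p was 0.114.

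Sox7, a SoxF gene of early endothelium and of haemogenic precursors, rose too. It stood at 129 and 143 CPM in the Hdac2 4OHT libraries, against 84.8 and 58.3 CPM in the EtOH libraries (log2 fold change 0.93 ± 0.29, adjusted p = 0.0399). Both 4OHT libraries were above both EtOH libraries, and the EtOH replicates differed more from each other than the 4OHT replicates did. The log2 fold change ran from 0.68 to 1.22 over the fits that left out 1 library.

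Sox18, which takes part in lymphatic and blood vessel formation, did not pass. Its levels were 174 and 260 CPM in the Hdac2 4OHT libraries and 268 and 241 CPM in the EtOH libraries. The groups overlapped, and the log2 fold change was -0.23 ± 0.21 with a 95% interval from -0.71 to 0.25 (adjusted p = 0.399).

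The makeup of the SoxF transcripts differed between these groups. Per kilobase of exon (RPKM), Sox17 made up 23.2% and 18.9% of the summed SoxF level in the Hdac2 4OHT libraries, against 4.96% and 6.23% in the EtOH libraries. Sox18 made up 56.4% and 63.8% of the sum with 4OHT and 82.3% and 83.8% with EtOH. The Sox7 share was 20.4% and 17.3% with 4OHT and 12.8% and 9.94% with EtOH. Sox18 thus remained the largest part of the SoxF level in all 4 libraries. The deposited spans of Sox7 and Sox17 differ from those in GENCODE M21, whose exon lengths were used, so these shares are approximate. The summed SoxF level overlapped between the groups, at 191 and 251 RPKM with 4OHT and 201 and 178 RPKM with EtOH. In the Hdac1 line the Sox17 share overlapped as well, at 10.9% and 4.77% with 4OHT and 5.98% and 12.4% with EtOH.

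**Figure D2:**
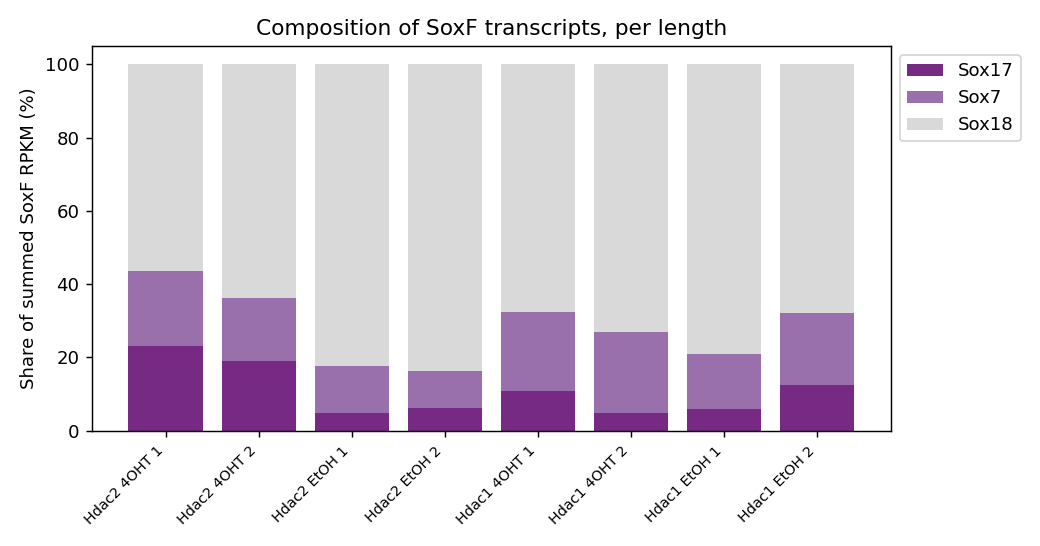
Share of Sox17, Sox7 and Sox18 in the summed RPKM of the 3 SoxF genes (vertical axis, percent) in each of the 8 libraries (horizontal axis). The Sox17 part is 23.2% and 18.9% in the Hdac2 4OHT libraries and between 4.77% and 12.4% in the other 6.

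Among the ETS genes, Etv2 was the member that fell. Its counts were low, with 27 and 11 reads in the Hdac2 4OHT libraries and 145 and 122 reads in the EtOH libraries. These correspond to 2.1 and 0.977 CPM with 4OHT, against 9.4 and 11.7 CPM with EtOH. Both 4OHT libraries were far below both EtOH libraries, and the log2 fold change was -2.75 ± 0.56 (6.73-fold lower, 95% interval -4.05 to -1.45, adjusted p = 0.0137). Leaving out 1 library gave log2 fold changes from -3.41 to -2.32. Etv2 (chromosome 7, 30633616 to 30635852) was the member with the lowest RPKM in all 4 groups.

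Erg and Fli1, which act together in the factor complex of blood stem cells known as the heptad, were both higher in each 4OHT library of the Hdac2 line, but only Erg passed. Erg stood at 143 and 201 CPM with 4OHT and 102 and 113 CPM with EtOH (log2 fold change 0.68 ± 0.21, adjusted p = 0.0383), and its log2 fold change was 0.41 without 4OHT replicate 2 and 0.91 without 4OHT replicate 1. Fli1 stood at 267 and 363 CPM with 4OHT and 240 and 228 CPM with EtOH (log2 fold change 0.43 ± 0.20, adjusted p = 0.12), with 0.19 and 0.64 as the lowest and highest log2 fold changes over the fits that left out 1 library. For both genes 4OHT replicate 2 was the highest of all 8 libraries. Whether the changes of Erg and Fli1 differ from each other was not tested.

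Ets1, an ETS factor of angiogenesis and lymphoid cells, had the highest mean CPM of the set in each group. Its levels were 642 and 898 CPM in the Hdac2 4OHT libraries and 513 and 573 CPM in the EtOH libraries (log2 fold change 0.50 ± 0.25, 95% interval -0.07 to 1.08, adjusted p = 0.139). The groups did not overlap, but the 4OHT replicates were farther apart than the gap between the groups. Ets2, its paralogue and a target of Ras and MAP kinase signalling, stood at 266 and 329 CPM with 4OHT and 295 and 338 CPM with EtOH. Those groups overlapped, and the log2 fold change of Ets2 was -0.09 ± 0.18 (95% interval -0.50 to 0.32, adjusted p = 0.704).

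Elk3 and Etv6 were higher in both 4OHT libraries of the Hdac2 line, and Elk3 passed the test. Elk3, a ternary complex factor that represses with serum response factor until it is phosphorylated, stood at 272 and 369 CPM with 4OHT and 219 and 223 CPM with EtOH (log2 fold change 0.54 ± 0.18, adjusted p = 0.0482). Its log2 fold change was 0.30 without 4OHT replicate 2 and 0.74 without 4OHT replicate 1, and its call was also lost without either 4OHT library of the Hdac1 line. Etv6, a repressor needed for blood stem cells, stood at 212 and 229 CPM with 4OHT and 138 and 142 CPM with EtOH. Its replicates lay close together in both groups, and with a log2 fold change of 0.65 ± 0.23 it missed the threshold (adjusted p = 0.0599). Other ETS repressor genes did not pass, with log2 fold changes of -0.07 ± 0.14 for Erf and 0.35 ± 0.21 for Etv3. DESeq2 and edgeR's likelihood ratio test called Etv6, and limma-voom missed Elk3 (adjusted p = 0.0516). Of the 18 alternatives for this comparison, 9 called Etv6 and 7 called Elk3. With upper quartile scaling, and with no scaling beyond library size, the median of all genes moved to -0.15 and -0.14, and Erg and Elk3 were no longer called.

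**Figure D3:**
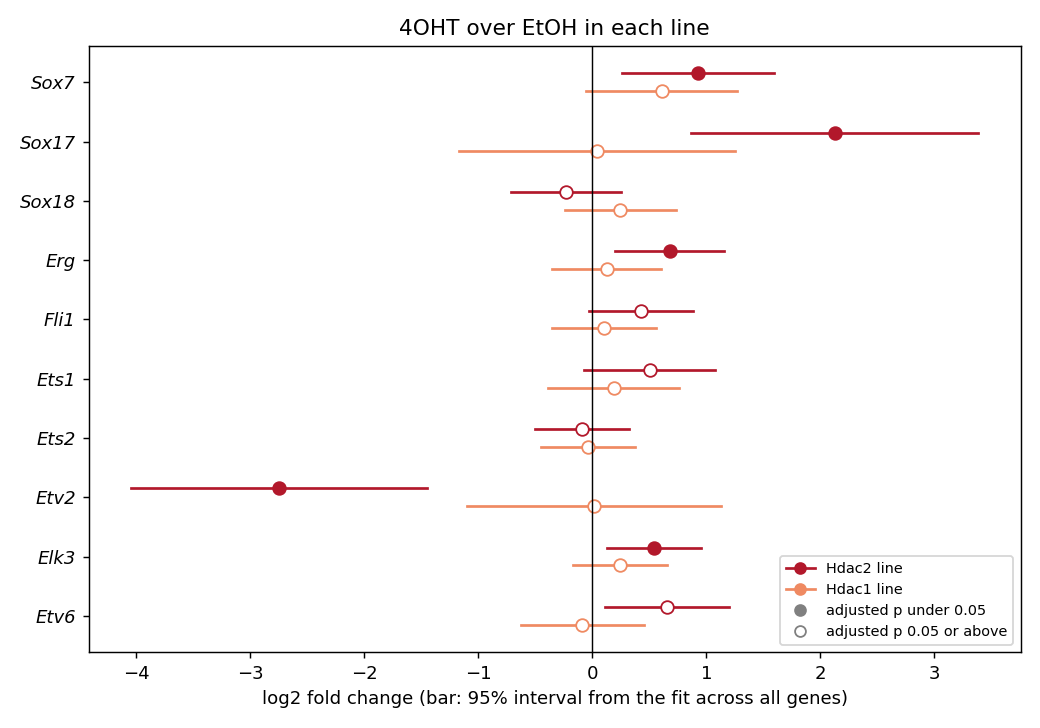
Log2 fold change of 4OHT over EtOH (horizontal axis) for each member, with the Hdac2 line above the Hdac1 line. Bars are 95% intervals from the fit across all genes and filled points passed an adjusted p of 0.05. Sox17 at 2.13 and Etv2 at -2.75 lie farthest from 0 in the Hdac2 line, and all Hdac1-line intervals include 0.

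Markers of several cell types moved with these genes in the Hdac2 line. The summed level of 8 endothelial markers was 5696 and 7556 CPM with 4OHT, against 2635 and 2800 CPM with EtOH, a ratio of means of 2.44, or 2.52 without the EtOH library with Y-linked reads. Of these 8 markers 5 rose (Cdh5, Pecam1, Kdr, Tie1 and Emcn), and none was at 0 in any library. The sum of 8 erythroid markers was 375 and 231 CPM with 4OHT, against 1718 and 1609 CPM with EtOH. The sum of 5 smooth muscle markers was 6121 and 4080 CPM with 4OHT, against 1994 and 1369 CPM with EtOH, most of it Acta2 and Tagln. Cnn1 (24.2 and 19.5 CPM with 4OHT, 9.4 and 5.25 CPM with EtOH) and Myh11 were higher with 4OHT too. Myh11 was at 2.58 CPM or less in this line. Myocd overlapped, at 0.776 and 0.622 CPM with 4OHT and 0.648 and 0.86 CPM with EtOH. The 6 haemogenic markers summed to 368 and 414 CPM with 4OHT and to 616 and 770 CPM with EtOH, and the 6 megakaryocyte markers to 63.2 and 58.2 CPM with 4OHT and 217 and 185 CPM with EtOH. The 4 neural markers summed to 540 and 628 CPM with 4OHT and to 182 and 112 CPM with EtOH, most of it Nes, while Sox1 and Pax6 were at 0.533 CPM or less in every library. The 5 markers of pluripotent cells summed to 0.931 and 1.33 CPM with 4OHT and to 2.85 and 4.11 CPM with EtOH. The sums of 7 cardiomyocyte markers (37.8 and 41.7 CPM with 4OHT, 36.8 and 21.6 CPM with EtOH), 7 leukocyte and macrophage markers (63.3 and 51.8 CPM with 4OHT, 50.8 and 45.3 CPM with EtOH) and 4 lymphoid markers (at most 0.466 CPM) differed less. Single markers inside the cardiomyocyte and leukocyte sums moved in opposite directions. Itgam stood at 14.7 and 15.5 CPM with 4OHT and 1.3 and 0.0955 CPM with EtOH. Mpo stood at 3.65 and 4.18 CPM with 4OHT and 26.1 and 32.4 CPM with EtOH. Nkx2-5 was at 8.77 and 11.9 CPM with 4OHT and 0.972 and 1.15 CPM with EtOH. Tnni1 was at 4.73 and 4 CPM with 4OHT and 24.4 and 12.3 CPM with EtOH. The part of the cell type markers in the members' changes was not tested.

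Set against the endothelial marker sum, most members stood lower with 4OHT. Per 1000 CPM of endothelial markers, Sox17 stood at 37.1 and 30.0 CPM in the Hdac2 4OHT libraries, against 18.1 and 18.9 CPM in the EtOH libraries, a ratio of means of 1.82, or 1.86 without the EtOH library with Y-linked reads. Sox17 was the 1 member whose 4OHT libraries lay above its EtOH libraries on this scale. Sox7 overlapped, with 22.6 and 19 CPM with 4OHT and 32.2 and 20.8 CPM with EtOH. The other 8 members were lower in both 4OHT libraries, with ratios of means from 0.06 for Etv2 to 0.65 for Etv6 and Erg. Sox18 had a ratio of 0.35, Fli1 0.55, Ets1 0.58 and Elk3 0.59. Without the EtOH library with Y-linked reads the ratio of Sox7 was 0.65, against 0.78 with it. These ratios carry no test, and the same markers differ in how far they moved. The divisor itself was 2.44 times higher with 4OHT, so a gene that rose by less than that stood lower on this scale. How many of all genes did so was not counted.

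Sox17 and Sox7 are also endoderm genes, so endoderm markers were read beside them. The sum of 8 primitive and visceral endoderm markers was 11.6 and 9.6 CPM in the Hdac2 4OHT libraries and 3.56 and 2.1 CPM in the EtOH libraries. Most of it came from Foxa2 and Cubn, and Hnf4a was at 0 in both 4OHT libraries. Foxa2 itself stood at 4.97 and 3.02 CPM with 4OHT and 0.389 and 0.382 CPM with EtOH. Ttr, Apoa1, Apob and Amn each stood at 0.355 CPM or less in every library. The 3 markers of definitive endoderm, which Sox17 also marks, summed to 2.02 and 2.75 CPM with 4OHT and to 5.57 and 3.06 CPM with EtOH. Most of that sum was Cxcr4, which endothelium also expresses, and Gsc was at 0 in all 4 libraries of the Hdac2 line. The part of endoderm cells in the change of Sox17 was not tested.

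In the Hdac1 line, none of the 10 members passed, and neither did any other gene (0%). At an unadjusted p under 0.05 there were 0 members and 947 of 14179 genes (6.68%), and DESeq2 called 32 genes and the likelihood ratio test 35, none of them a member. The log2 fold changes of the members ran from -0.09 for Etv6 to 0.61 for Sox7, with a median of 0.11. Sox7 stood at 124 and 110 CPM in the Hdac1 4OHT libraries, against 55.9 and 97.4 CPM in the EtOH libraries (log2 fold change 0.61 ± 0.28, 95% interval -0.05 to 1.27, adjusted p = 0.758). Sox7, Sox18 and Elk3 were the 3 members whose 4OHT libraries lay above both EtOH libraries, where 15.8% of all genes did so and 31.2% were separated in either direction. Sox18 stood at 191 and 177 CPM with 4OHT and 146 and 165 CPM with EtOH, and Elk3 at 209 and 212 CPM with 4OHT and 171 and 185 CPM with EtOH.

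Sox17 and Etv2 varied widely inside each Hdac1 group. Sox17 stood at 90.7 and 34.1 CPM in the Hdac1 4OHT libraries and 32.4 and 88.4 CPM in the EtOH libraries (log2 fold change 0.04 ± 0.52, 95% interval -1.17 to 1.25, adjusted p = 0.995). Etv2 stood at 5.81 and 11.2 CPM with 4OHT and 11.8 and 5.2 CPM with EtOH (log2 fold change 0.01 ± 0.48, adjusted p = 0.999). In both groups the library with more Sox17 had less Etv2, and these were 4OHT replicate 1 and EtOH replicate 2. The same 2 libraries had more summed endothelial markers, with 5567 CPM against 4185 CPM for the 4OHT pair and 5140 CPM against 3463 CPM for the EtOH pair. They also had less of the erythroid sum, with 163 CPM against 427 CPM for the 4OHT pair and 288 CPM against 922 CPM for the EtOH pair. With replicates this far apart, the 95% intervals of Sox17 and Etv2 in this line reach past 1 log2 unit in both directions.

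**Figure D4:**
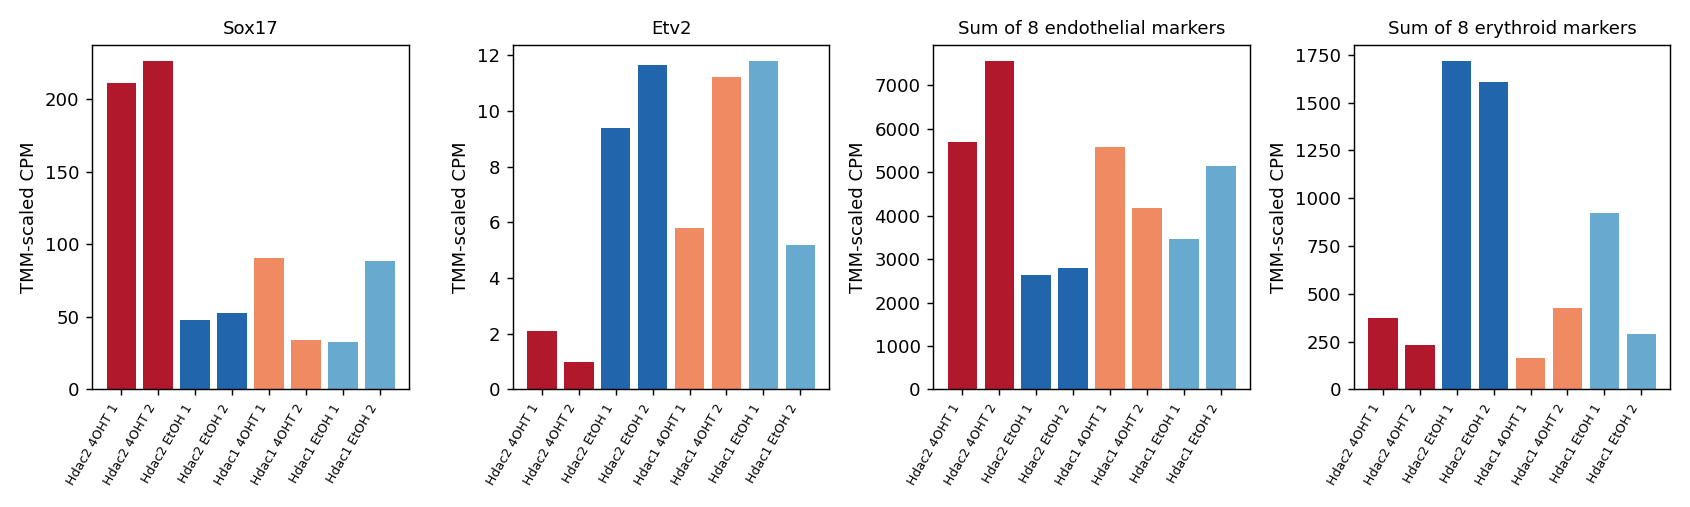
CPM of Sox17, Etv2 and the summed markers of endothelium and red cells (vertical axes, from 0) in each of the 8 libraries. Within the Hdac1 line, 4OHT replicate 1 and EtOH replicate 2 share higher Sox17 (90.7 and 88.4 CPM) and lower Etv2 (5.81 and 5.2 CPM).

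Across the 8 libraries Sox17 and Etv2 ran opposite, with a Pearson correlation of -0.967 on the log2 scale, given as a description since the libraries share groups and cell makeup. The correlation of Sox17 with Ets1 was 0.82, with Elk3 0.78, with Fli1 0.76, with Sox7 0.73 and with Ets2 -0.19.

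The 4OHT effects of the lines were then compared with each other. No member passed the test of the difference (Hdac2 line minus Hdac1 line), and 0.0282% of all genes, 4 in number, were called. Etv2 came nearest, with a difference in log2 fold change of -2.76 ± 0.74 (adjusted p = 0.0886), followed by Sox17 with 2.08 ± 0.75 (adjusted p = 0.133). The Sox17 difference was 1.19 without EtOH replicate 2 of the Hdac1 line and 2.95 without 4OHT replicate 1 of that line. Without the Hdac2-line library with Y-linked reads it was 2.16, and that of Etv2 was -2.60. These 2 members had an unadjusted p under 0.05, as did 28.0% of all genes. For Sox7 the difference was 0.32 ± 0.40 with a 95% interval from -0.61 to 1.25. DESeq2 and the likelihood ratio test called Etv2 and Sox17, and so did the quasi-likelihood test without EtOH replicate 1 of the Hdac1 line, where 3740 genes were called in all. With no filter on low counts Etv2 alone was called. Whether the 4OHT effects on Etv2 and Sox17 are called different between the lines thus depends on the test, the filter and 1 library.

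The lines also differed in their levels under the same agent. These comparisons share libraries with those above. Among the EtOH libraries no member was called, where 9.33% of all genes were. Sox18 stood at 268 and 241 CPM in the Hdac2 line, against 146 and 165 CPM in the Hdac1 line (log2 difference 0.71 ± 0.21, adjusted p = 0.0655). At an unadjusted p under 0.05 there were 2 members and 33.0% of all genes. The Sox18 groups did not overlap, and 3 members lay above and 2 below in this way, where 60.1% of all genes were separated. Etv6 lay below, at 138 and 142 CPM in the Hdac2 line and 185 and 248 CPM in the Hdac1 line (log2 difference -0.63 ± 0.23, adjusted p = 0.11). Without the Hdac2-line library with Y-linked reads the log2 differences were 0.78 for Sox18 (adjusted p = 0.166) and -0.66 for Etv6 (adjusted p = 0.265). Sox18 was called by DESeq2, the likelihood ratio test, upper quartile scaling and the fit with no filter, and Etv6 without EtOH replicate 1 of the Hdac1 line.

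Among the 4OHT libraries, Etv2 was lower in the Hdac2 line and was the 1 member called, where 8.02% of all genes were. It stood at 2.1 and 0.977 CPM in the Hdac2 line and 5.81 and 11.2 CPM in the Hdac1 line (log2 difference -2.46 ± 0.56, 5.49-fold lower, adjusted p = 0.0399). That call was lost with limma-voom, with the replicate block and without any 1 of the libraries of the Hdac2 line or of the Hdac1 4OHT pair, with log2 differences from -3.12 to -1.90. Sox17 stood at 211 and 226 CPM in the Hdac2 line, against 90.7 and 34.1 CPM in the Hdac1 line, and missed the threshold (log2 difference 1.81 ± 0.54, adjusted p = 0.0767). Ets1 (log2 difference 0.81 ± 0.25, adjusted p = 0.0835) and Elk3 (0.61 ± 0.18, adjusted p = 0.075) missed it too. At an unadjusted p under 0.05 there were 4 members and 27.6% of all genes, and 4 members lay above and 1 below without overlap, where 62.3% of all genes were separated. Sox17, Ets1 and Etv2 were called without EtOH replicate 1 of the Hdac1 line, and Elk3 besides these without its EtOH replicate 2.

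Levels of different members are compared here per kilobase of exon. Sox18 had the highest mean RPKM in every group, at 134 ± 37.3 in Hdac2 4OHT, 157 ± 11.8 in Hdac2 EtOH, 114 ± 6.27 in Hdac1 4OHT and 95.9 ± 8.47 in Hdac1 EtOH (SD, n = 2 each). Etv2 had the lowest, at 1.47 ± 0.754, 10 ± 1.52, 8.12 ± 3.65 and 8.11 ± 4.44 RPKM in the same groups. In the Hdac2 4OHT libraries the order below Sox18 was Ets1, Fli1, Elk3, Ets2, Erg, Sox17, Sox7, Etv6 and Etv2. There Ets1 and Fli1, Fli1 and Elk3, Ets2 and Erg, and Erg and Sox17 were neighbours whose libraries overlapped. In the Hdac2 EtOH libraries Sox17 lay next to Etv2 at the bottom, at 10.5 ± 0.776 RPKM, and those libraries overlapped. The same 2 genes were the lowest, with overlap, in both Hdac1 groups, where Sox17 averaged 13.1 ± 8.39 RPKM with 4OHT and 12.7 ± 8.29 RPKM with EtOH. In the Hdac2 4OHT libraries Sox17 averaged 45.9 ± 2.23 RPKM, above Sox7 at 41.2 ± 3.2 RPKM. The exon lengths of Sox17 and Sox7 are uncertain, as said above, and so is their order.

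Other genes of these families and pathways were read as lists, whose counts stand beside the 18.9% of all genes that rose and the 17.2% that fell in the Hdac2 line. Of 12 other ETS genes tested, 3 rose and 0 fell in the Hdac2 line, a smaller share than the 36.1% of all genes called, with a median log2 fold change of 0.36. Elf4, which restrains division of T cells, stood at 131 and 151 CPM with 4OHT and 68.8 and 73.6 CPM with EtOH (log2 fold change 0.98 ± 0.19, adjusted p = 0.0119). The others were Elf1 (0.89 ± 0.22) and Elk4 (1.49 ± 0.42), a ternary complex factor like Elk3. Spi1, the ETS factor PU.1 of myeloid cells, stood at 13 and 9.42 CPM with 4OHT and 11 and 6.3 CPM with EtOH and did not pass (adjusted p = 0.502).

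Of 9 other Sox genes tested, 3 rose and 2 fell in the Hdac2 line, where 36.1% of all genes were called, with a median log2 fold change of 0.77. Sox6, a SoxD gene with a role in red cell maturation, stood at 39.8 and 33.9 CPM with 4OHT and 3.82 and 9.07 CPM with EtOH (log2 fold change 2.54 ± 0.62, adjusted p = 0.0205). Sox4, a SoxC gene, stood at 405 and 364 CPM with 4OHT and 156 and 104 CPM with EtOH (log2 fold change 1.57 ± 0.32, adjusted p = 0.0137), and Sox13 rose by 1.02 ± 0.27. Sox12 fell, at 71.8 and 76.4 CPM with 4OHT and 108 and 121 CPM with EtOH, and so did Sox2, which was at 3.06 CPM or less in every library.

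Endothelial genes often described with SoxF or ETS sites were read next. Of 26 tested, 15 rose and 0 fell in the Hdac2 line, where 18.9% of all genes rose, with a median log2 fold change of 1.05. The 8 endothelial markers summed above are all among these 26, so the markers that rose are counted again here. Notch1, the arterial receptor, stood at 377 and 470 CPM with 4OHT and 168 and 170 CPM with EtOH (log2 fold change 1.33 ± 0.28, adjusted p = 0.0144). Notch4 stood at 138 and 224 CPM with 4OHT and 39.5 and 30.1 CPM with EtOH (log2 fold change 2.38 ± 0.49, adjusted p = 0.0143). The 4 smallest adjusted p-values belonged to the connexin gene Gja5 (4.89 ± 0.61), Clec14a (1.93 ± 0.26), the co-receptor gene Eng (1.88 ± 0.29) and the cadherin gene Cdh5 (1.81 ± 0.31). Among the 11 that did not pass was Dll4, a Notch ligand often placed downstream of SoxF factors, at 12.2 and 43.4 CPM with 4OHT and 13.9 and 34.7 CPM with EtOH (log2 fold change 0.20 ± 0.81, adjusted p = 0.861). The Notch target Hey1 (0.35 ± 0.59) and the connexin gene Gja4 (-0.03 ± 0.33) did not pass, and their groups overlapped.

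None of the blood factors that act with Erg and Fli1 in the heptad was called higher, although Gata2 came near the threshold. Of 5 tested, 0 rose and 2 fell in the Hdac2 line, where 17.2% of all genes fell, with a median log2 fold change of -0.35. Lmo2, a bridging protein of the complex, stood at 66.7 and 74.6 CPM with 4OHT and 312 and 258 CPM with EtOH (log2 fold change -2.01 ± 0.33, adjusted p = 0.00893). Tal1, the basic helix-loop-helix member, stood at 142 and 153 CPM with 4OHT and 295 and 375 CPM with EtOH (log2 fold change -1.18 ± 0.18, adjusted p = 0.00868). Gata2 was higher in both 4OHT libraries, at 76.5 and 85.8 CPM against 50.3 and 44.6 CPM with EtOH. With a log2 fold change of 0.77 ± 0.26, against 0.68 ± 0.21 for Erg, it missed the threshold (adjusted p = 0.0517). Runx1 and Lyl1 had log2 fold changes of -0.35 ± 0.23 and -0.33 ± 0.23 and did not pass. Tal1, Lyl1 and Runx1 are also among the haemogenic markers summed above.

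Of 18 other regulators and partners of SoxF and ETS factors tested, 7 rose and 1 fell in the Hdac2 line, a share not far from the 36.1% of all genes called, with a median log2 fold change of 0.60. Ncor1, a corepressor gene, had a log2 fold change of 1.6 ± 0.32. Vegfa, the endothelial growth factor gene, stood at 156 and 163 CPM with 4OHT and 62.1 and 52.4 CPM with EtOH (log2 fold change 1.48 ± 0.33, adjusted p = 0.0163). The gene that fell was Hdac3 (-0.61 ± 0.20, adjusted p = 0.0485), which encodes another class I histone deacetylase. These lists lost most calls when 1 library of the Hdac2 line was left out: of the 26 endothelial genes, 12 were called when 4OHT replicate 1 was dropped, 2 when 4OHT replicate 2 was, and 0 when either EtOH library was. The other 4 lists together had 0 to 2 calls in these fits. In the Hdac1 line no gene of these 5 lists was called. An unadjusted p under 0.05 was reached by 3 of 12 other ETS genes, 3 of 26 endothelial genes and 3 of 5 heptad partners. It was reached by 0 of 9 other Sox genes, 0 of 18 regulators and partners and 6.68% of all genes. The ETS genes were Etv1, Etv4 and Etv5, all higher, and the heptad partners Tal1, Lyl1 and Runx1, all lower. Of the endothelial genes Icam2 was higher, and Gja4 and Hey2 were lower.

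The genes whose levels most resembled each member over the 8 libraries were sought among 9948 tested genes with a mean of at least 5 CPM, as a description. For Sox17 these were St5, Slc40a1 and Mfn2, with Pearson correlations of 0.997, 0.995 and 0.992. Slc40a1, the iron exporter ferroportin, stood at 184 and 194 CPM in Hdac2 4OHT, 44.8 and 48 CPM in Hdac2 EtOH, 73.1 and 27.6 CPM in Hdac1 4OHT and 23.6 and 72.5 CPM in Hdac1 EtOH. For Etv2 they were Prim2, a DNA primase subunit gene, Nip7, a ribosome biogenesis gene, and Rpl38-ps2, a pseudogene, with correlations of 0.996, 0.995 and 0.994. The gene nearest to Sox7 was Nptxr (0.990), to Etv6 Trim33 (0.992), to Ets1 Cds2 (0.978) and to Elk3 Rhobtb1 (0.970). Erg had Sipa1 (0.959), Fli1 Ppp1r13b (0.959), Sox18 Bok (0.951) and Ets2 Zfp69 (0.920). All 8 libraries share groups, so high correlations over them are common.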

How the data were processed

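The table that the authors deposited holds raw read counts, whole and without normalization, of 41128 genes in 8 libraries. Per the labels' protocols, 200 ng of total RNA went into a strand-specific kit with 15 amplification cycles. Per the submitters' processing notes, the tools, listed without roles, were edgeR 3.8.5, Bowtie2 2.2.1, R 3.1.0, bcl2fastq 2.17.1.14 and SAMtools 0.1.19, on mm10. The sources used here do not give the counting program, annotation or strand setting. Without the strand setting, reads of a gene and an antisense partner cannot be told apart.

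Groups came from the sample titles. Genes were filtered with filterByExpr, scaled by TMM and tested in edgeR 4.0.16 (R 4.3.3) by a robust quasi-likelihood fit with 1 mean for each group, over the 8 libraries together, with Benjamini-Hochberg adjustment over 14179 genes within each of 5 comparisons. Standard errors and intervals come from the F statistic. RPKM divides CPM by the summed exon length in GENCODE M21, and correlations use log2(CPM + 1). The script was checked on simulated counts with the same spread in every group, so that check does not cover groups of unequal spread. Similarity was measured with BLAST 2.17.0. The members and gene lists were chosen with earlier results of these data known. Genes of lists were named by the smallest adjusted p, up to 4 per list, and a gene and a sequence are not reported here. Spi1, Notch1, Notch4, Dll4, Hey1, Gja4, Lyl1, Sox2, Hdac3, Foxa2, Erf, Etv3, Itgam, Mpo, Nkx2-5 and Tnni1 were named after their values were seen. So were the single smooth muscle and megakaryocyte markers and the genes given in the closing section. The genes most like a member were the 3 with the highest Pearson correlation, predicted and clone names left out. Alternatives were other scalings, no filter, DESeq2 1.42.0, limma-voom 3.58.1, the likelihood ratio test, a replicate block, fits of only the groups compared and leaving out each library. A library left alone in its group by such a fit is taken to have the spread of the groups that keep a pair.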

Additional observations from a re-analysis of the deposited data

How the results depend on the processing

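In the Hdac2 line 5 members were called, and 3 with upper quartile scaling or no scaling beyond library size and 2 with the replicate block (Sox17 and Etv2). It was 4 with no filter or limma-voom and 6 with DESeq2 or the likelihood ratio test. With only the groups compared in the fit it was 7, where 7272 genes were called in all, against 5113 in the main fit. The loss of calls without 1 library is described with the first comparison. For the difference between the lines, 0 were called, and 1 with no filter, 2 with DESeq2 or the likelihood ratio test and 0 to 2 without 1 library. Among EtOH libraries 0 were called, and 1 with upper quartile scaling, no filter, DESeq2 or the likelihood ratio test and 0 to 1 without 1 library. Among 4OHT libraries 1 was called, and 2 with no filter or only the groups compared, 4 with DESeq2 or the likelihood ratio test, 0 with limma-voom or the replicate block and 0 to 4 without 1 library. In the Hdac1 line it was 0 in all 18 alternatives. The causes were not tested. Replicate numbers share only a number: deviations of same-numbered libraries correlated at 0.33 in the Hdac2 line and -0.76 in the Hdac1 line. A block with the numbers crossed in the Hdac1 line, added after seeing the data, called 7 members in the Hdac2 line and 0 in the Hdac1 line.

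Only log2 fold changes that had not passed the test changed sign. Those of the Hdac1 line were -0.0039 for Etv2 with upper quartile scaling, and -0.0325 for Etv2 and -0.0190 for Sox17 with no scaling, which gave Ets2 -0.0258 among 4OHT libraries. Without 1 library, ranges that crossed 0 were, in the Hdac2 line, -0.54 to 0.032 for Sox18 and -0.25 to 0.058 for Ets2. In the Hdac1 line they were -0.83 to 0.93 for Sox17, -0.54 to 0.72 for Etv2, -0.083 to 0.51 for Ets1, -0.42 to 0.18 for Etv6, -0.027 to 0.23 for Fli1, -0.16 to 0.086 for Ets2 and -0.012 to 0.27 for Erg. For the difference they were -0.21 to 0.094 for Ets2, -0.14 to 0.66 for Sox7 and -0.015 to 0.59 for Ets1. Among EtOH libraries they were -0.45 to 0.35 for Sox7, -0.82 to 0.62 for Sox17 and -0.17 to 1.01 for Etv2. Among 4OHT libraries they were -0.082 to 0.49 for Sox18, -0.085 to 0.41 for Erg, -0.055 to 0.39 for Fli1, -0.070 to 0.24 for Ets2 and -0.16 to 0.45 for Etv6. Depth limits Etv2 most, at 11 to 216 reads per library.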

Other observations

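Several partner genes outside the set shared the library pattern of Sox17 in the Hdac1 line, where 4OHT replicate 1 and EtOH replicate 2 stood apart from the others. They were chosen after their values were seen and are given without explanation. The pattern is not particular to them. Over all tested genes, deviations of same-numbered libraries correlated at -0.76 in this line. How many genes share the pattern was not counted. Gata4, a GATA factor of heart and endoderm, stood at 76 and 88.6 CPM in Hdac2 4OHT, 15.8 and 16 CPM in Hdac2 EtOH, 175 and 47.7 CPM in Hdac1 4OHT and 45 and 181 CPM in Hdac1 EtOH. Foxc2, a forkhead factor that acts with Etv2 at endothelial enhancers, stood at 19.2 and 17.7 CPM in Hdac2 4OHT, 2.72 and 1.15 CPM in Hdac2 EtOH, 15.5 and 2.16 CPM in Hdac1 4OHT and 0.873 and 7.55 CPM in Hdac1 EtOH. Gata4 rose in the Hdac2 line (log2 fold change 2.37 ± 0.74, adjusted p = 0.0409 by edgeR's quasi-likelihood test), and Foxc2 did not pass (3.20 ± 1.12, adjusted p = 0.0559). Cldn5, a tight junction gene of endothelium, ran the other way, with 31.9 and 56.7 CPM in Hdac2 4OHT, 92.5 and 107 CPM in Hdac2 EtOH, 15.5 and 71.5 CPM in Hdac1 4OHT and 44.6 and 9.6 CPM in Hdac1 EtOH, and did not pass (adjusted p = 0.268).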
